A study of Mus musculus with 335 samples.

Results

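The 38 genes described here are the enzymes and transporters of glycolysis together with genes that cells switch on when oxygen is short. They are a list of names that uses no measured value, although the list was drawn up with earlier results of these data known, and 37 of them had a row among the 20188 genes of the expression table; Pkm2 is not analysed here. The series is RNA-seq of poly-A RNA from mouse mammary tumours, their metastases, cultured tumour lines and tumour-free organs, in 335 libraries and 61 groups, all untreated. In 10 models, lung metastases could be set beside primary tumours of the same mice, 68 mice in all. Of these models, 5 were lines injected into the mammary gland: 4T1 (BALB mice, 6 mice, driver not known), 6DT1 (FVB, 6 mice, cMyc), Mvt1 (FVB, 6 mice, cMYC and VEGF), Met1 (FVB, 6 mice, PyMT, the polyoma middle T antigen) and M6 (strain given as REAR, 6 mice, SV40T). The other 5 were mice that carry MMTV-PyMT, a transgene whose viral promoter is active mainly in mammary epithelium, on the backgrounds FVB (12 mice), BL6 (5), BL10 (6), CAST (7) and MOLF (8). The tumour of 1 of the 12 FVB mice has FVB in its title but MOLF as its strain label, and was kept as FVB. Further comparisons used liver metastases of 3 M6 mice, resected Met1 tumours of 4 mice, cultured cells of 7 lines, and 21 groups of primary tumours, including the lines 4T07, 67NR, D2A1, EMT6, F311 and TSAE1 (BALB), E0771 (BL6), HRM1 (FVB, Pik3ca) and R3T (129S1J) and transgenic Myc (FVB, cMYC) and C3Tag mice (SV40T, with 3 different strain labels). Levels alone are given for 2 MMTV-Neu mice (FVB), 1 of them with PyMT-Neu in its library names, and for M6 injected into the heart (FVB). The same holds for lung metastases after tail-vein injection of 4T1 (BALB), Mvt1 and Met1 (both FVB), and for brain metastases of Met1 and M6. Healthy lung, from FVB mice only, and healthy liver served as references. Each line is 1 cell population, so its mice share 1 origin, and 4T1, 4T07 and 67NR are themselves sublines of 1 mouse tumour. Most titles of tissue samples name the animal, so the replicates are mice, and several libraries of 1 mouse and tissue were averaged. For D2A1, E0771, EMT6, F311, HRM1, R3T and TSAE1 the titles give a tumour number only, and each such tumour was taken as 1 mouse.

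Glycolysis splits glucose to pyruvate, and tumour cells turn much of that pyruvate into lactate even in the presence of oxygen. When oxygen falls, the prolyl hydroxylases (Egln genes) no longer mark the hypoxia-inducible factors (HIF-1α from Hif1a, HIF-2α from Epas1) for destruction, and these factors, with their partner ARNT, bind a short DNA core near genes for glucose uptake, glycolysis, acid export and mitochondrial turnover. HIF-α is controlled mostly at the protein level, so the RNA of Hif1a and Epas1 is not a measure of HIF activity. Some of these genes, such as Epas1, also mark particular normal cells, in the lung above all the endothelium.

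Promoters of 4 members are shown first, to let the letters of the HIF core be seen. Described further down are 7 members that were both lower in lung metastases than in tumours and higher in tumours than in cultured cells, and the 4 are those of the 7 that hold a core and whose larger adjusted p of the 2 comparisons is lowest. Eno2, another of the 7, holds none. The sequences are the 250 bases upstream of the start in RefSeq's table (GRCm38.p6, 5′ to 3′ on the gene's strand), with the core letters ACGTG and GCGTG, or their reverse complement, in capitals. Car9 lies at chr4:43506776-43507025 (+), Egln3 at chr12:54203875-54204124 (−), Adm at chr7:110627407-110627656 (+) and Bnip3 at chr7:138909507-138909756 (−).
Car9: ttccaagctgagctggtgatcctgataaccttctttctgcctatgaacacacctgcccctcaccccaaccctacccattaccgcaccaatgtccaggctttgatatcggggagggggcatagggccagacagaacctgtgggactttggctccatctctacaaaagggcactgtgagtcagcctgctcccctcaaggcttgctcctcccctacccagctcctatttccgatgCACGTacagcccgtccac
Egln3: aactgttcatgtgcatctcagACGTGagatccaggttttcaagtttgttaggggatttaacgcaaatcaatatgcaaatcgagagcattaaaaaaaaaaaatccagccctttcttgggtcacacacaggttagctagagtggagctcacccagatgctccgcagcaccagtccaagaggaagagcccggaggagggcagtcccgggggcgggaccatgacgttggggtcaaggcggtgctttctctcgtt
Adm: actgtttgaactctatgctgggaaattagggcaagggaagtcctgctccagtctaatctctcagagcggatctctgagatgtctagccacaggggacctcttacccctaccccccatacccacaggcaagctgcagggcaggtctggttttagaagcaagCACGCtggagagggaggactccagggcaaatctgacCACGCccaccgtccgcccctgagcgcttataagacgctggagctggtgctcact
Bnip3: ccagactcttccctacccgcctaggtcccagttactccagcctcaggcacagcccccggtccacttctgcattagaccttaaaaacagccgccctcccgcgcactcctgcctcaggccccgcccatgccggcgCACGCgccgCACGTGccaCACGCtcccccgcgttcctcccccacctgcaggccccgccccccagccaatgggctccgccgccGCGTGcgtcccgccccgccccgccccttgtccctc
Car9, whose product is a carbonic anhydrase on the cell surface, had 1 core, on the minus strand and 18 bases upstream of the start. Egln3, an oxygen sensor and itself a HIF target, had 1 core on the plus strand at 229 bases. Adm, the vasodilator peptide adrenomedullin, had 2 cores, at 90 and 54 bases, and Bnip3, which marks mitochondria for removal, had 5, between 117 and 35 bases upstream, 2 of them the overlapping strands of 1 palindrome. Of the 33 members with a promoter in the table, 29 (87.9%) held at least 1 core on either strand, against 41.5% of 27025 genes, and 22 (66.7%) held 2 or more, against 18.7%. Car12, Eno2, Gpi1 and Tpi1 had none of these letters in this window. The members were not matched to other genes for base composition, and a match of letters is not a bound site.

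Depth, worked back from the values, ran from 8106344 to 54906212 assigned reads per library (median 27175852). Over these libraries the median number of reads was 71668 for Gapdh, 550 for Car9, 165 for Eno2 and 130 for Adm. All values are RPKM, reads scaled by transcript length and library depth, so levels of different genes are on a per-length scale. The metastases carried RNA of the lung around them: the summed level of 9 markers of alveolar type 2 cells was 1978 to 8256 RPKM in the model means of metastases and 8.30 to 41.9 RPKM in those of tumours. From lung markers, healthy lung was estimated to make up 6.45% (MOLF) to 18.9% (6DT1) of the metastasis RNA on average per model. The metastasis sample of 1 FVB mouse stood apart, at the limit of 95% set for this estimate, and the non-resected Met1 tumour of mouse 1 had an epithelial marker sum of 200.0 RPKM where those of the other 3 mice with a resected tumour had 973 to 1305 RPKM. Of 7 epithelial markers, all 7 averaged under 1 RPKM in 67NR tumours (summed level 1.89 RPKM), and 3 to 5 did in 6DT1, 4T07, D2A1, EMT6 and E0771 tumours, while none did in the other 15 tumour groups. In bulk tissue, fewer cells of a type and less RNA per cell cannot be told apart.

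Across the 10 models, more members were lower in lung metastases than in their tumours of origin than were higher. With 1 mean paired difference per model, limma called 14 of 37 members lower and 3 higher at an adjusted p under 0.05. Among all 11467 genes tested, 19.4% were called lower and 11.7% higher, so the share of members called lower, 37.8%, was above the background and the share called higher, 8.11%, below it. Differences are in log2(RPKM + 1), metastasis minus tumour. Their median was −0.16 over the members and −0.04 over all genes, and 29 of 37 members and 58% of all genes were below 0. By role, 5 of 17 glycolysis members, both oxygen sensors, both carbonic anhydrases, 2 of 4 mitochondrial members and 3 of 6 stress and matrix members were lower. With the estimated lung share subtracted, 17 were lower, Epas1 among them, and 1 higher. Values that the subtraction took below 0 were set to 0.

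Epas1, the gene of HIF-2α, had the largest difference and went up. Its model means ran from 4.66 to 9.77 RPKM in tumours (median 5.07) and from 11.0 to 38.1 RPKM in metastases (median 19.0), without overlap and with a rise in each of the 10 models. The difference was 1.38 (SE 0.11, adjusted p = 2.28e-06). Healthy lung had 321 ± 30.3 RPKM (SD, n = 4 mice), and with the estimated lung share subtracted the difference turned to −2.30. Where the estimated lung part exceeded the measured level, the value was cut off at the floor, so −2.30 is not a measured fall. The direction of Epas1 apart from lung RNA was not settled by this subtraction. Hif1a, the gene of HIF-1α, had model means of 12.1 to 34.3 RPKM in tumours and 11.7 to 22.4 RPKM in metastases, and its difference of −0.06 (SE 0.08, adjusted p = 0.610) did not pass.

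The 2 oxygen sensors both fell. Egln3 had model means of 10.5 to 96.9 RPKM in tumours (median 59.0) and 2.91 to 81.1 RPKM in metastases (median 43.4). The ranges overlapped, but 9 of 10 models were lower, and BL6 alone was higher (difference −0.67, SE 0.10, adjusted p = 0.000517). Egln1, the main hydroxylase in most tissues, ran from 6.56 to 35.9 RPKM in tumours and from 7.88 to 24.6 RPKM in metastases, with 8 of 10 models lower (−0.34, SE 0.10, adjusted p = 0.0245). Egln1 was the one lower member whose level in healthy lung, 18.5 RPKM, was not below the mean of the tumours, 17.5 RPKM, and it missed the threshold without Mvt1, M6 or CAST and after rescaling.

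Of the glycolysis enzymes, both hexokinases, 2 of the 3 phosphofructokinase subunits and enolase 2 fell. Pfkl, the liver-type phosphofructokinase, had model means of 41.4 to 99.8 RPKM in tumours (median 74.9) and 33.3 to 81.2 RPKM in metastases (median 56.2), and each of the 10 models was lower (−0.45, SE 0.06, adjusted p = 0.000376). Pfkm, the muscle-type subunit, had 7.45 to 17.1 RPKM in tumours and 5.65 to 15.6 RPKM in metastases, with 8 of 10 models lower (−0.35, SE 0.09, adjusted p = 0.0103). The platelet-type subunit Pfkp was lower in 5 models and higher in 5, with a difference of −0.08 that did not pass. Hk1, the hexokinase found in most cells, ran from 18.8 to 61.2 RPKM in tumours and from 13.0 to 45.4 RPKM in metastases, lower in 9 of 10 models with 6DT1 as the exception (−0.36, SE 0.07, adjusted p = 0.00254). Hk2, the inducible hexokinase, ran from 2.87 to 25.7 RPKM and from 2.68 to 21.0 RPKM in the same order, lower in 8 of 10 models (−0.30, SE 0.10, adjusted p = 0.0321), and kept its call under 8 of 16 alternatives. Eno2, the neuronal enolase that HIF also drives, was low throughout, at 0.427 to 11.6 RPKM in tumours and 0.359 to 6.92 RPKM in metastases, yet lower in each of the 10 models (−0.60, SE 0.10, adjusted p = 0.000866).

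The other enzymes of the middle and lower steps, among them the most abundant members, did not pass. Gapdh had a median of model means of 605 RPKM in tumours and 652 RPKM in metastases (difference 0.02, SE 0.09), and Pgk1 266 and 238 RPKM (−0.02, SE 0.08). Ldha, which makes lactate from pyruvate, had 574 and 560 RPKM (−0.04, SE 0.06) and Aldoa 515 and 491 RPKM (−0.07, SE 0.08). Tpi1, Eno1 and Pgam1 lay between −0.14 and −0.16, lower in 7 or 8 of 10 models. These genes have processed pseudogenes of nearly the same sequence, and how shared reads were assigned is not given in the sources used here.

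Among the mitochondrial members, Pdk1 and Bnip3 fell while Pdk3 rose. Pdk1 and Pdk3 encode kinases that shut off pyruvate dehydrogenase, the gate from pyruvate to the citrate cycle. Pdk1 had model means of 5.31 to 12.8 RPKM in tumours (median 8.35) and 3.16 to 12.7 RPKM in metastases (median 6.52), and was lower in each of the 10 models (−0.52, SE 0.11, adjusted p = 0.00456). Pdk3 had 5.66 to 15.0 RPKM and 7.91 to 16.7 RPKM, higher in metastases in 9 of 10 models (0.27, SE 0.06, adjusted p = 0.00332), although healthy lung, at 6.67 RPKM, was below the tumours' mean of 9.01 RPKM. Bnip3 ran from 14.3 to 107 RPKM in tumours and from 16.0 to 70.8 RPKM in metastases, lower in 8 of 10 models with BL6 and BL10 higher (−0.52, SE 0.15, adjusted p = 0.0201). Its relative Bnip3l had a difference of −0.15 (SE 0.07) that did not pass.

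Both carbonic anhydrases fell, while transporters mostly did not pass. Car9 had model means of 1.57 to 25.3 RPKM in tumours (median 12.6) and 1.37 to 22.7 RPKM in metastases (median 10.4), lower in 9 of 10 models (−0.39, SE 0.09, adjusted p = 0.00664). Car12, which also buffers acid outside the cell, ran from 3.46 to 102 RPKM in tumours and from 0.508 to 82.0 RPKM in metastases, lower in 9 of 10 models (−0.68, SE 0.15, adjusted p = 0.00475). Both are near absent in healthy lung, at 0.590 and 0.0451 RPKM. Of the transporters, Slc2a3 (the glucose transporter GLUT3) was low, at 0.292 to 2.65 RPKM in tumours and 0.881 to 3.01 RPKM in metastases, and higher in metastases in 8 of 10 models (0.31, SE 0.10, adjusted p = 0.0356). That call held under 7 of 16 alternatives, and healthy lung had 2.59 RPKM. The main glucose transporter Slc2a1 (GLUT1, −0.30, SE 0.15) and the lactate carriers Slc16a1 (0.11, SE 0.10) and Slc16a3 (−0.13, SE 0.14) did not pass.

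In the stress and matrix set, Ddit4, Adm and Ndrg1 fell. Ddit4, an inhibitor of mTORC1 that hypoxia and other stresses induce, had model means of 42.9 to 102 RPKM in tumours (median 69.8) and 19.1 to 87.0 RPKM in metastases (median 46.2), lower in 9 of 10 models (−0.64, SE 0.13, adjusted p = 0.00341). Adm ran from 1.92 to 22.3 RPKM in tumours and from 1.63 to 8.90 RPKM in metastases and was lower in 7 of 10 models (−0.65, SE 0.18, adjusted p = 0.0180). Ndrg1, a stress-induced gene of growth arrest, ran from 29.7 to 146 RPKM and from 29.3 to 83.6 RPKM, lower in 8 of 10 models (−0.56, SE 0.17, adjusted p = 0.0254), and lost the call without any 1 of 4T1, Mvt1, M6, FVB and CAST. Ankrd37 (0.13, SE 0.13) and the collagen prolyl hydroxylases P4ha1 (0.08, SE 0.08) and P4ha2 (−0.03, SE 0.11) did not pass.

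**Figure D1:**
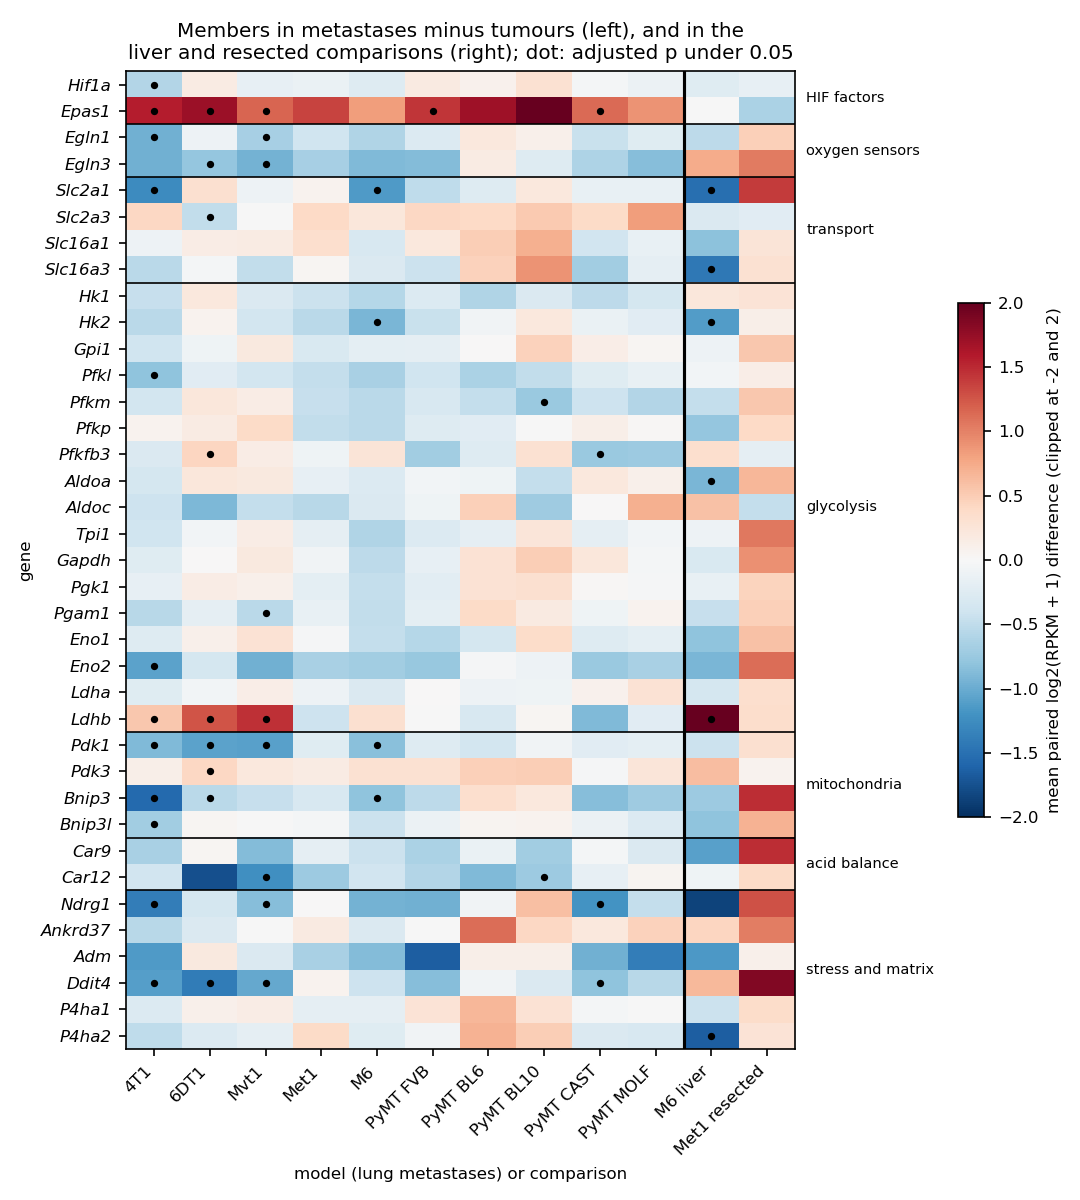
Mean paired difference in log2(RPKM + 1) of each member (rows, grouped by role) in lung metastases minus tumours of the 10 models, and in the M6 liver and the resected Met1 comparisons (right), clipped at −2 and 2; dots mark an adjusted p under 0.05. Epas1 is above 0 in each of the 10 models, and Pfkl, Eno2 and Pdk1 are below 0 in each.

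**Figure D2:**
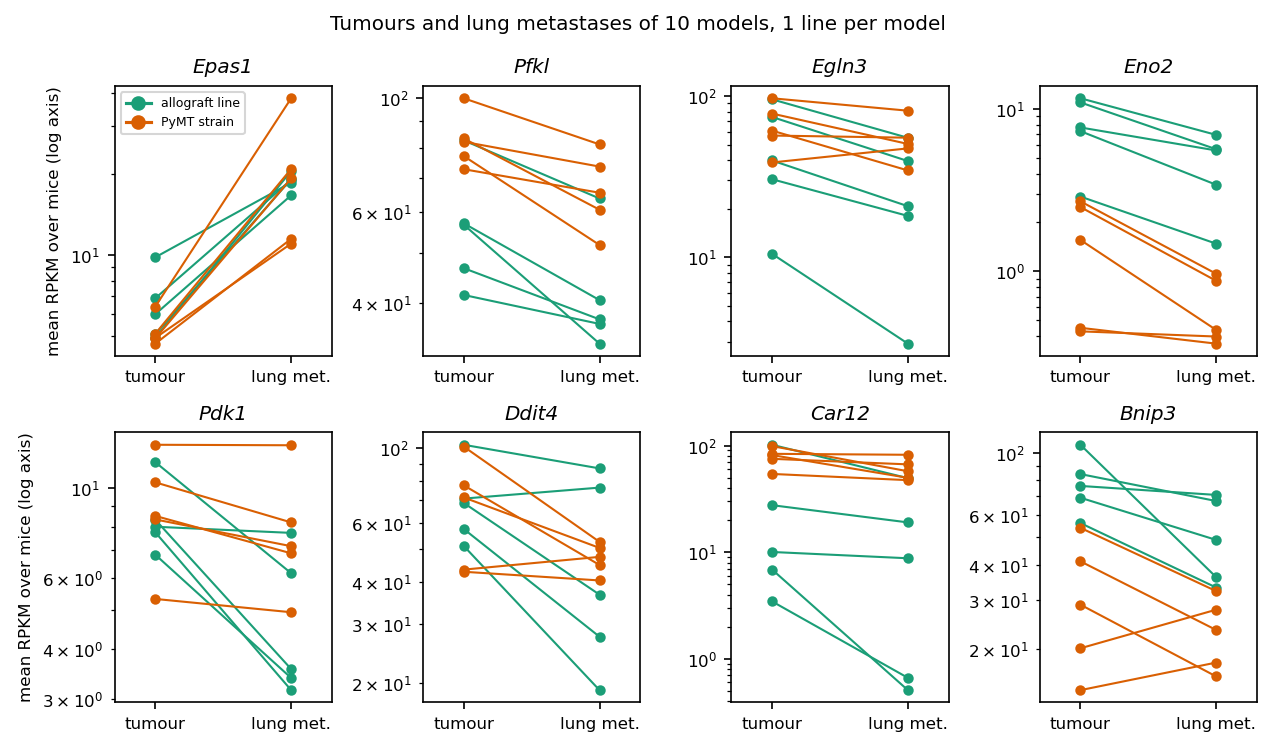
Model means (RPKM, log axis) of 8 members in primary tumours and lung metastases, with 1 line per model, green for the 5 injected lines and orange for the 5 PyMT strains. The lines of Pfkl, Eno2 and Pdk1 all slope down and those of Epas1 all slope up.

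Of the 14 lower members, 13 were also lower in healthy lung than in the mean of the tumours, as were 15 of the 20 members that did not pass and 1 of the 3 higher members. Fibroblast markers moved as well: 9 of 10 were called lower in metastases and 1 higher, with model sums of 42.9 to 298 RPKM against 237 to 724 RPKM in tumours. All 10 endothelial and all 10 neutrophil markers were called higher, and none of 7 tumour epithelial markers was called. The part of these cells in the member differences was not tested beyond the subtraction of lung. Without the FVB mouse whose metastasis stood apart, the same count of members was called, 14 lower and 3 higher.

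The models differed in how many members passed. In all, 20 of 37 members (54.1%) passed in at least 1 model and 17 in none, where 51.8% of 12799 genes passed in at least 1, so the share of members was near the background. Pdk1 and Ddit4 were lower in 4 models, Bnip3 and Ndrg1 in 3, while Epas1 was higher in 5 and Ldhb, the heart-type lactate dehydrogenase, in 3. Pfkfb3 passed both ways, higher in 6DT1 and lower in CAST.

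In 4T1, 10 of 37 members fell (4.75% of 11257 genes did) and 2 rose (7.36% of genes), with a median difference of −0.47 against 0.03 over all genes. Bnip3 ran from 62.1 to 156 RPKM in the 6 tumours (median 103) and from 20.7 to 71.2 RPKM in the metastases (median 27.4), a difference of −1.55 (SE 0.21, adjusted p = 0.00407). Egln1 had 23.0 to 35.8 RPKM in tumours and 9.06 to 17.4 RPKM in metastases (−0.96, SE 0.15, adjusted p = 0.00806), and Bnip3l had 59.3 to 98.4 and 46.0 to 56.3 RPKM (−0.69, SE 0.12, adjusted p = 0.0117). The values of Egln1 and Bnip3l did not overlap, and those of Bnip3 did. Slc2a1 fell from a median of 52.3 RPKM (29.9 to 91.2) to 18.2 RPKM (13.7 to 39.8), by 1.25 on the log2 scale (SE 0.21, adjusted p = 0.0121). Hif1a fell from 33.1 RPKM (26.1 to 42.8) to 21.4 RPKM (20.4 to 25.6) without overlap (−0.58, SE 0.10, adjusted p = 0.0152). Eno2 fell from 6.99 RPKM (4.04 to 10.5) to 2.42 RPKM (1.04 to 7.52), a difference of −1.07 (SE 0.20, adjusted p = 0.0177). All 6 genes were lower in 6 of 6 mice; Pdk1, Pfkl, Ddit4 and Ndrg1 also fell, and Epas1 and Ldhb rose. Mouse 2 had 35 of 37 members lower, with a median of −1.04, against 25 to 30 members in the other 5 mice, and 7 members passed without it, as without mouse 1.

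In 6DT1, 5 of 36 members fell (15% of 11121 genes) and 4 rose (19.4%). The share of members that fell, 13.9%, was near the background, and the share that rose, 11.1%, was below it. Ddit4 had 30.6 to 67.5 RPKM in the 6 tumours (median 48.3) and 11.1 to 28.4 RPKM in the metastases (median 19.4), without overlap (−1.39, SE 0.25, adjusted p = 0.00436). Pdk1 fell from a median of 7.83 RPKM (2.87 to 11.0) to 2.45 RPKM (1.58 to 5.33), by 1.08 on the log2 scale (SE 0.21, adjusted p = 0.00639). The higher members without overlap were Epas1, from 4.70 RPKM (4.25 to 6.25) to 20.1 RPKM (9.01 to 37.1; 1.71, SE 0.22, adjusted p = 0.00112), and Pdk3, from 5.69 RPKM (5.28 to 6.08) to 7.81 RPKM (6.60 to 9.18; 0.41, SE 0.07, adjusted p = 0.00346). Ldhb rose from 1.71 RPKM (0.984 to 4.85) to 6.57 RPKM (4.63 to 7.81; 1.26, SE 0.24, adjusted p = 0.00621) with healthy lung at 86.0 RPKM. Slc2a3 fell, from 2.87 RPKM (1.52 to 3.15) to 1.49 RPKM (1.12 to 2.38), by 0.49 on the log2 scale (SE 0.11, adjusted p = 0.0108), opposite to its rise over the models. The 6 mice differed, with 7 to 29 of 37 members lower, and 17 members passed without mouse 0.

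In Mvt1, 7 of 37 members fell (17.8% of 10940 genes) and 2 rose (11.2%), so the share that fell was near the background. Pdk1 fell from a median of 8.42 RPKM (4.08 to 14.0) to 3.35 RPKM (1.39 to 6.53), by 1.08 on the log2 scale (SE 0.14, adjusted p = 0.00338). Egln3 fell from 39.3 RPKM (24.1 to 53.6) to 23.2 RPKM (10.5 to 27.3; −0.95, SE 0.17, adjusted p = 0.00831) and Egln1 from 19.1 RPKM (13.5 to 39.2) to 11.7 RPKM (8.99 to 18.6; −0.66, SE 0.12, adjusted p = 0.00844). Ndrg1 fell from 114 RPKM (81.4 to 181) to 68.3 RPKM (44.4 to 114; −0.85, SE 0.19, adjusted p = 0.0171), and Ddit4 from 52.9 RPKM (39.9 to 141) to 24.4 RPKM (17.1 to 81.1; −1.02, SE 0.25, adjusted p = 0.0215). Epas1 rose from 5.92 RPKM (3.10 to 8.30) to 11.6 RPKM (6.86 to 30.2; 1.17, SE 0.23, adjusted p = 0.0110). Ranges of all 6 genes overlapped, and all but Ddit4, lower in 5 mice, moved one way in 6 of 6 mice. Leaving out 1 mouse gave 5 to 13 members called.

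In M6, 4 of 36 members fell (1.06% of 11228 genes) and none rose (3.65%). A difference below 0 was found in 32 of 36 members and in 47.4% of genes. Hk2 fell from a median of 8.67 RPKM (7.17 to 11.2) to 4.45 RPKM (1.96 to 7.95; −0.91, SE 0.17, adjusted p = 0.0209). Pdk1 fell from 6.13 RPKM (4.35 to 10.5) to 3.49 RPKM (1.34 to 5.53; −0.84, SE 0.17, adjusted p = 0.0312). Slc2a1 fell from 77.1 RPKM (40.4 to 118) to 38.2 RPKM (9.81 to 73.5; −1.13, SE 0.26, adjusted p = 0.0462), and Bnip3 from 54.8 RPKM (33.1 to 78.4) to 34.8 RPKM (15.2 to 53.6; −0.80, SE 0.19, adjusted p = 0.04999). Tumours and metastases overlapped for each. The 4 calls are close to the threshold: 1 was left without the mouse as a block, and leaving out single mice left 0 to 4, with 0 for 2 of the 6 mice. In Met1, no member of 36 passed in limma and 3 had an unadjusted p under 0.05, where 0.263% of genes rose and 0.0544% fell. The largest differences there were 1.36 for Epas1 (SE 0.57, adjusted p = 0.444), −0.72 for Car12 (SE 0.38, adjusted p = 0.539) and −0.67 for Egln3 (SE 0.54, adjusted p = 0.692). Mouse 1 of Met1, whose tumour stood apart, had 30 of 37 members higher in its metastases, against 6 to 16 in the other 5 mice.

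In the 5 PyMT strains 0 to 4 members passed, where 4 had passed in M6 and none in Met1. In FVB, 0.849% of 11075 genes rose and 0.424% fell, and of 35 members only Epas1 passed, from a median of 4.81 RPKM (2.96 to 7.43) to 9.58 RPKM (6.96 to 62.4), higher in 12 of 12 mice (1.43, SE 0.30, adjusted p = 0.0350). It did not pass without the mouse whose metastasis stood apart (1.24, adjusted p = 0.0524), nor without any 1 of 7 others, where the difference was 1.27 to 1.48 (adjusted p = 0.0506 to 0.0761). Without the mouse whose tumour has MOLF as its strain label, Epas1 passed (1.54, adjusted p = 0.0308) and so did Ddit4 (−1.03, SE 0.23, adjusted p = 0.0480). Adm had −1.65 (SE 0.46, adjusted p = 0.0913, lower in 10 of 12 mice) and did not pass, and neither did Ndrg1 (−0.95, SE 0.44, adjusted p = 0.269) or Egln3 (−0.86, SE 0.49, adjusted p = 0.376). In CAST, where 1.31% of 11185 genes rose and 3.2% fell, 4 of 36 members passed, each moving one way in 7 of 7 mice. Epas1 rose from 4.16 RPKM (3.41 to 6.87) to 10.6 RPKM (7.78 to 16.6) without overlap (1.13, SE 0.12, adjusted p = 0.000962). Ndrg1 fell from 59.2 RPKM (27.8 to 131) to 19.6 RPKM (17.1 to 63.1; −1.20, SE 0.20, adjusted p = 0.0133) and Ddit4 from 78.8 RPKM (37 to 136) to 33.1 RPKM (28.3 to 90.4; −0.81, SE 0.14, adjusted p = 0.0168). Pfkfb3, whose product makes the strongest activator of phosphofructokinase, fell from 8.01 RPKM (3.38 to 11.8) to 4.06 RPKM (2.31 to 6.22; −0.74, SE 0.18, adjusted p = 0.0474). In CAST, 1 member passed without the mouse as a block, and leaving out single mice gave 1 in one case, 2 in another and 9 where the mouse left out was the one with most members higher (28 of 37).

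In BL10, 0.973% of 11208 genes rose and 1.59% fell, and 2 of 35 members fell. Pfkm fell from a median of 11.3 RPKM (9.77 to 14.3) to 5.88 RPKM (5.52 to 9.96; −0.74, SE 0.15, adjusted p = 0.0431), and Car12 from 80.2 RPKM (55.0 to 116) to 43.6 RPKM (30.9 to 79.7; −0.73, SE 0.15, adjusted p = 0.0438). Neither passed after rescaling, and 0 to 4 members passed when single mice were left out. The BL10 members as a whole had a median of 0.21 against −0.08 over all genes, with Epas1 at 2.00 (SE 0.46, adjusted p = 0.0575) and Slc16a3 at 0.90 (SE 0.28, adjusted p = 0.0945), and Aldoc at −0.72 (SE 0.28, adjusted p = 0.155). In BL6, no member of 35 passed in limma and 10 had an unadjusted p under 0.05, where 0.392% of 11214 genes rose and 0.259% fell. The largest differences were 1.70 for Epas1 (SE 0.39, adjusted p = 0.127), 1.12 for Ankrd37 (SE 0.20, adjusted p = 0.0534) and −0.89 for Car12 (SE 0.26, adjusted p = 0.213). In MOLF, no member of 36 passed in limma and 11 had an unadjusted p under 0.05, where 0.616% of 11033 genes rose and 0.48% fell. Adm had −1.39 (SE 0.32, adjusted p = 0.0804), Epas1 0.90 (SE 0.28, adjusted p = 0.234) and Egln3 −0.85 (SE 0.24, adjusted p = 0.163).

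Whether the injected lines and the PyMT strains differed in these differences was tested directly, on 5 model values each. No member of 37 passed in limma and 9 had an unadjusted p under 0.05, where 0.602% of 11467 genes were called higher and 0.0698% lower in the lines minus the strains. The members' median was −0.25 against 0.06 over all genes. The largest values were 0.91 for Ldhb (SE 0.32, adjusted p = 0.234), −0.63 for Ankrd37 (SE 0.20, adjusted p = 0.192) and −0.61 for Aldoc (SE 0.23, adjusted p = 0.276).

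In M6 liver metastases, glucose and lactate carriers and a collagen hydroxylase were lower than in the tumours of the same mice. In 3 mice, 5 of 36 members fell (7.25% of 11381 genes) and 1 rose (6.05%). P4ha2, which hydroxylates collagen for the matrix, had 17.0, 24.5 and 26.3 RPKM in the tumours of the 3 mice and 6.45, 4.93 and 8.11 RPKM in their liver metastases (−1.65, SE 0.22, adjusted p = 0.00749). Slc2a1 went from 40.4, 102 and 69.5 RPKM to 20.7, 24.0 and 23.6 RPKM (−1.50, SE 0.26, adjusted p = 0.0163). Slc16a3, the lactate exporter MCT4, went from 4.74, 6.92 and 3.78 RPKM to 2.05, 1.03 and 0.790 RPKM (−1.43, SE 0.26, adjusted p = 0.0204). These values did not overlap between the groups. Hk2 went from 8.22, 11.2 and 7.17 RPKM to 5.24, 4.17 and 1.77 RPKM (−1.12, SE 0.25, adjusted p = 0.0360) and Aldoa from 270, 383 and 381 RPKM to 145, 236 and 168 RPKM (−0.92, SE 0.23, adjusted p = 0.0495), again without overlap. Ldhb rose, from 13.7, 8.67 and 16.5 RPKM to 183, 73.4 and 39.9 RPKM (2.60, SE 0.48, adjusted p = 0.0259), while healthy liver had 2.71 RPKM. For lung metastases, the M6 comparison used 6 mice, the 3 with liver metastases among them. Its differences were −0.25 for P4ha2, −1.13 for Slc2a1, −0.30 for Slc16a3, −0.91 for Hk2, −0.28 for Aldoa and 0.31 for Ldhb. Slc2a1 and Hk2 were called there. Because the sets of mice differ, the liver and lung values are not a like comparison. Hepatocyte markers summed to 3063 to 10836 RPKM in the liver metastases and 0.346 to 0.511 RPKM in the tumours. Fibroblast markers summed to 95.7 to 131 RPKM against 315 to 745 RPKM, with 7 of 10 called lower, and 4 of 10 endothelial and 2 of 7 epithelial markers were called lower, with epithelial sums of 603 to 1512 RPKM against 1656 to 1958 RPKM. The part of these cells in the result was not tested. No member passed without the mouse with the highest tumour Slc2a1.

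Of the 4 Met1 mice with a tumour labelled resected, each also gave a second primary tumour, and the labels do not say when either was taken. No member of 36 passed in limma, 6 had an unadjusted p under 0.05, and 0% of 10856 genes passed in the higher and 0% in the lower direction, although 904 had an unadjusted p under 0.05. The members nevertheless stood mostly on one side, with 4 of 36 below 0, where 61.9% of genes were below 0. The members' median was 0.43 against −0.10 over all genes, resected minus other. Ddit4 had 31.8, 81.8, 60.8 and 94.6 RPKM in the other tumours of mice 1, 3, 10 and 13 and 398, 681, 140 and 69.6 RPKM in the resected ones (1.85, SE 0.67, adjusted p = 0.541). Bnip3 had 23.6, 60.8, 80.3 and 64.6 RPKM and 270.1, 143, 135 and 91.8 RPKM (1.48, SE 0.51, adjusted p = 0.541), and Car9 1.83, 16.0, 14.9 and 12.1 RPKM and 33.3, 39.8, 27.5 and 13.8 RPKM (1.47, SE 0.55, adjusted p = 0.541). Bnip3 did not overlap, and both it and Car9 were higher in 4 of 4 mice, Ddit4 in 3. The mice differed: 31 of 37 members were higher in mouse 1 (median 1.55), 26 in mice 3 and 10 (0.45 and 0.16) and 12 in mouse 13 (−0.17). Without mouse 1, no member passed either, and the median over the 36 members was 0.15 against −0.08 over all genes, with 15 below 0. All 7 epithelial markers had a higher mean in the resected tumours, where they summed to 2534, 1513, 1619 and 1461 RPKM against 200.0, 1305, 1292 and 973 RPKM in the others, and none of the 7 was called. None of 10 fibroblast and none of 7 macrophage markers had a higher mean there. Both sums were lower in the resected tumours of mice 1, 10 and 13. In mouse 3 they were higher, at 429 against 180 RPKM for fibroblast and 269 against 166 RPKM for macrophage markers. The other tumour of mouse 1 had a fibroblast sum of 1125 and an erythroid sum of 4557 RPKM. Of 10 neutrophil markers 4 had a higher mean and none was called. Lcn2, a secreted iron-binding protein on that list that epithelial cells also make, had 20196, 23529, 11301 and 5488 RPKM in the resected tumours and 818, 3801, 5891 and 3926 RPKM in the others, while the other 9 together had 37.9 to 157 and 13.9 to 366 RPKM. The part of these cells in the result was not tested.

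**Figure D3:**
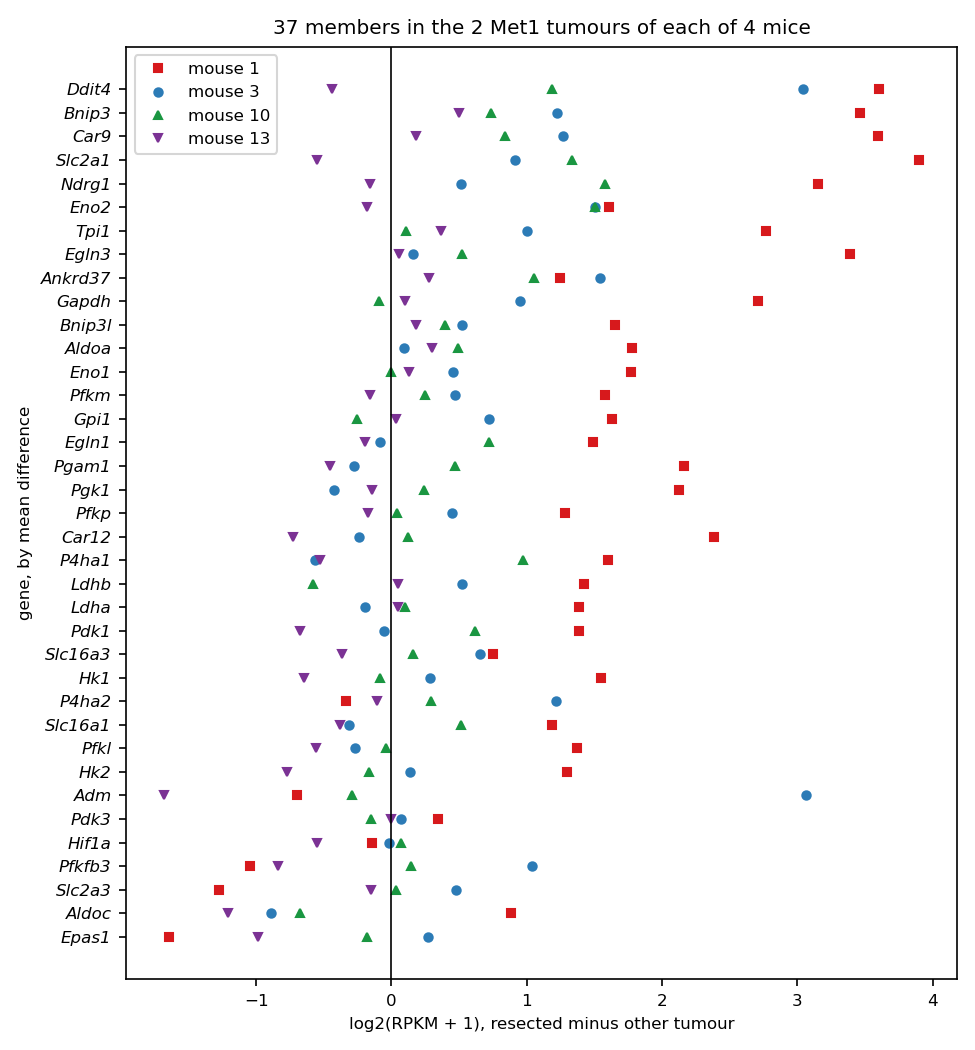
Difference in log2(RPKM + 1), resected minus other Met1 tumour, of the 37 members (rows, ordered by their mean) in each of 4 mice (symbols). Mouse 1 has 31 members above 0 and mouse 13 has 12.

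Tumours had higher levels of many members than the same lines in culture. Over 7 lines (4T1, 4T07, 67NR, 6DT1, Mvt1, Met1 and M6), with 1 mean for tumours and 1 for cells per line, 14 of 37 members were higher in tumours (12.4% of 10735 genes) and 1 was lower (9.55%). The median difference, tumour minus cells, was 0.69 over the members and −0.04 over all genes. Below 0 were 3 of the 37 members and 54.5% of genes. Ankrd37, an ankyrin-repeat gene induced by HIF, had line means of 1.14 to 3.80 RPKM in cells (median 1.64) and 5.74 to 34.1 RPKM in tumours (median 9.08), without overlap (2.01, SE 0.32, adjusted p = 0.00233). Slc16a3 had 0.132 to 8.33 RPKM in cells (median 0.201) and 2.84 to 25.3 RPKM in tumours (median 10.7; 2.21, SE 0.35, adjusted p = 0.00238), and the 2 lines with the highest levels in culture were 6DT1 and Mvt1, at 8.33 and 6.59 RPKM. Pfkfb3 had 0.715 to 7.47 and 3.03 to 13.8 RPKM (0.99, SE 0.16, adjusted p = 0.00309). All 3 were higher in 7 of 7 lines. Adm went from 0.0240 to 11.2 RPKM in cells (median 0.0627) to 1.92 to 17.2 RPKM in tumours (median 4.33), higher in 6 of 7 lines (1.75, SE 0.32, adjusted p = 0.00535); 67NR was the exception, with 11.2 RPKM already in culture. P4ha2 had 0.617 to 5.75 and 2.66 to 22.8 RPKM (1.24, SE 0.24, adjusted p = 0.00746). Hif1a was the one member lower in tumours, at 18.9 to 34.3 RPKM against 25.0 to 54.0 RPKM in cells, in 7 of 7 lines (−0.43, SE 0.09, adjusted p = 0.00995).

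The other members higher in tumours were Epas1, Car9, Eno2, Egln3, Bnip3, Egln1, Ldhb, Ldha and Ndrg1, by 0.57 (Egln1) to 2.05 (Bnip3) on the log2 scale. Ndrg1 kept this call under 5 of 11 alternatives and Ldha under 6 of 11. For Bnip3, the line means in cells were 7.19 (4T1), 25.2 (4T07), 25.0 (67NR), 44.0 (6DT1), 41.1 (Mvt1), 10.9 (Met1) and 2.29 RPKM (M6), and those in tumours 107, 137, 36.6, 69.2, 84.0, 78.9 and 56.3 RPKM in the same order. Lines differed in breadth: 31 to 35 of 37 members were higher in tumours of 4T1, 4T07, Met1 and M6, and 19 to 23 in those of 67NR, 6DT1 and Mvt1. Such counts per line were not made over all genes. Cells of the host were in the tumours only, with endothelial marker sums of 33.6 to 126 RPKM against 0.557 to 14.7 RPKM in culture, and fibroblast sums of 250.2 to 724 against 2.17 to 79.8 RPKM; their part in the result was not tested. Without the line as a block, 4 members passed. Tumours and cells of 4T07, and those of 6DT1, share no library name series, the code in the library names. In these lines tumour against culture cannot be told apart from the series, and the fit had no term for it. The 7 members higher in tumours than in cells and lower in metastases than in tumours were Adm, Bnip3, Car9, Egln1, Egln3, Eno2 and Ndrg1. Both comparisons use tumours of the same lines, and genes called both ways were not counted over all genes, so this is a description.

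**Figure D4:**
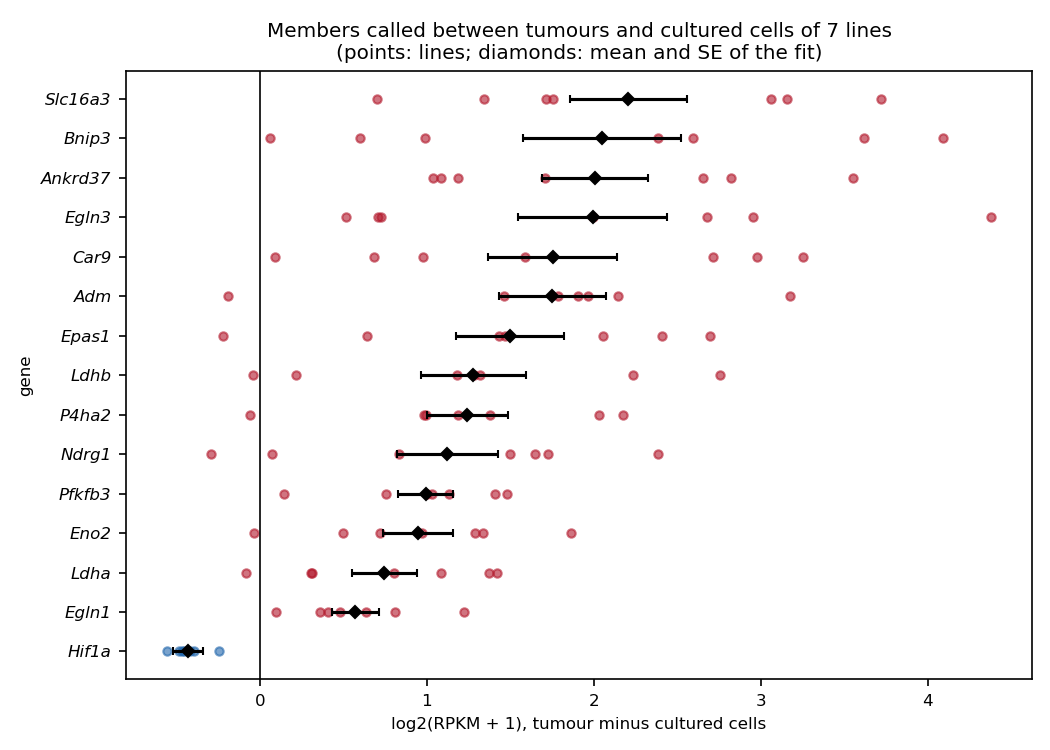
Difference in log2(RPKM + 1), tumour minus cultured cells, for the 15 members called; small points are the 7 lines, diamonds the mean and bars the SE of the fit. Hif1a lies left of 0 in all 7 lines, and Ankrd37, Slc16a3 and Pfkfb3 right of 0 in all 7.

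Between primary tumours, the members differed far more in some genes than in others. Across 21 tumour groups all 37 members varied beyond the spread between mice by limma's F test, as did 98.7% of 14100 genes. The test had no term for the library name series, the code in the library names. D2A1, E0771, EMT6, F311, HRM1, R3T and TSAE1 share a series, and 6DT1 and Myc share another. Differences between groups of unlike series cannot be told apart from differences between the series. The widest ratios between group means were in isoenzymes and genes of acid balance. Car12 ran from 0.112 RPKM in 67NR to 102 RPKM in Met1 (ratio 910), Aldoc from 0.479 RPKM in E0771 to 259 RPKM in Met1 (ratio 539.5) and Ldhb from 0.247 RPKM in E0771 to 130 RPKM in Met1 (ratio 524). The partners of Aldoc and Ldhb in the same reactions varied less: Aldoa ran from 249 to 754 RPKM (ratio 3.03) and Ldha from 207 to 842 RPKM (ratio 4.07). Aldoc, otherwise known from brain, thus stood at 135.6 to 231 RPKM in the 5 PyMT strains and at or below 38.1 RPKM in the other groups apart from Met1. Car9 ran from 0.490 RPKM in R3T to 41.8 RPKM in 4T07, Eno2 from 0.296 RPKM in R3T to 23.7 RPKM in 4T07, and Slc16a3 from 1.27 RPKM in BL10 to 96.7 RPKM in E0771. Eno1 (ratio 2.33), Pfkm (2.60), Bnip3l (2.62) and Gpi1 (2.88) varied least. The mice of the highest group and of the second highest overlapped for all members except Pgam1 and Slc16a1 (both EMT6 over TSAE1), Slc2a3 (E0771 over 6DT1), and Slc16a3 and Adm (both E0771 over EMT6). Such overlap was not counted over all genes, so these exceptions have no background to be set against.

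**Figure D5:**
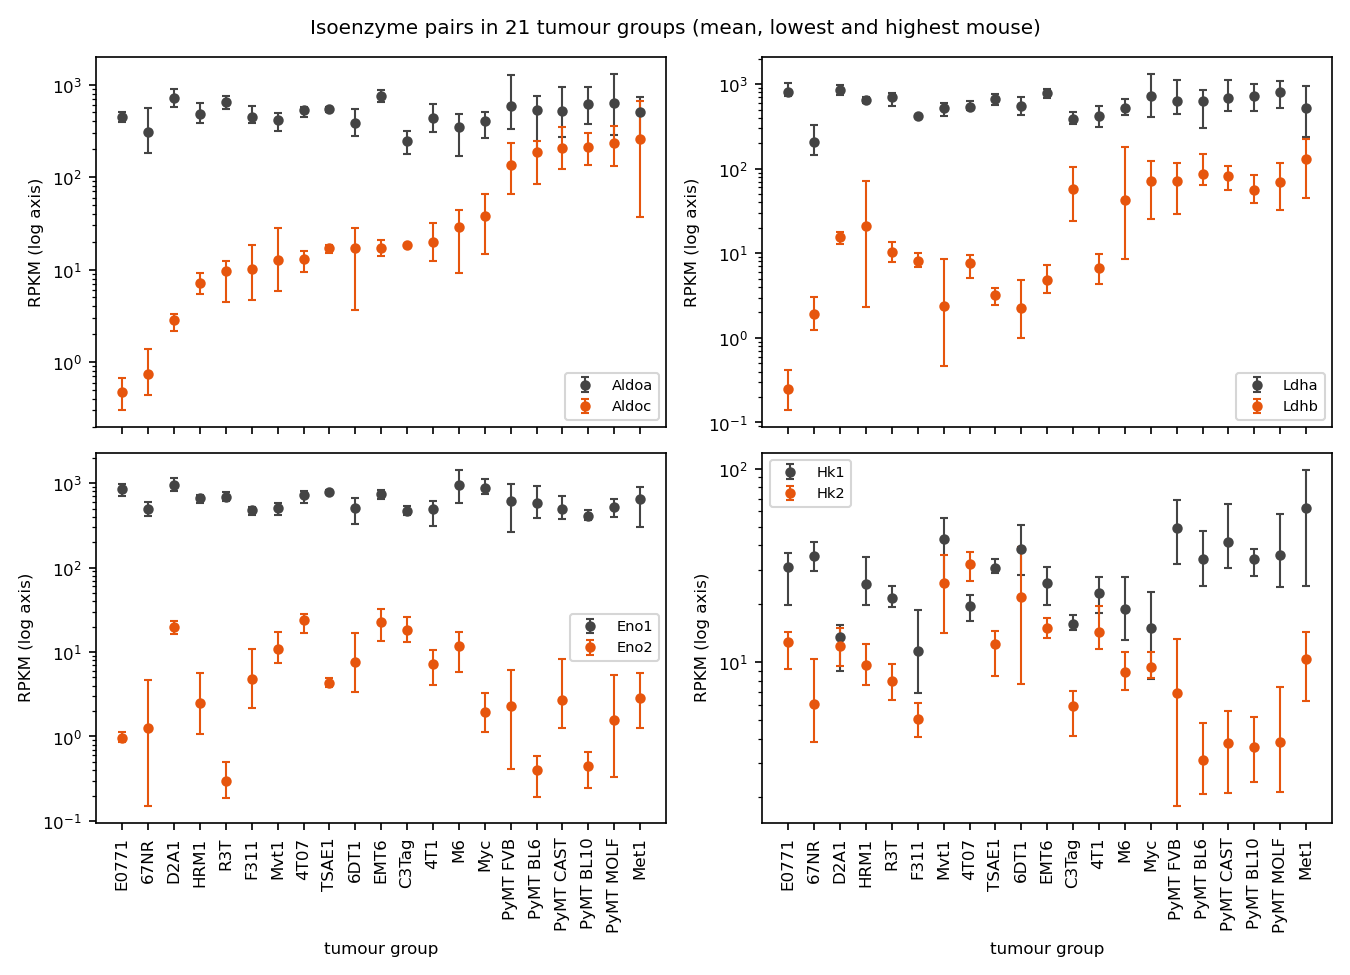
Levels (RPKM, log axis) of 4 pairs of isoenzymes in 21 tumour groups ordered by the mean of Aldoc, with points for group means and bars from the lowest to the highest mouse. Aldoa and Ldha stay within ratios of 3.03 and 4.07 while Aldoc and Ldhb span ratios of 539.5 and 524.

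Groups without a tumour of the same mouse are given as levels only. After injection of 4T1 into the tail vein, which skips growth in the mammary gland, lung metastases had Bnip3 at 43.9 ± 33.8 RPKM (SD, n = 6 mice), next to 36.1 ± 19.3 in the metastases and 107 ± 46.9 in the tumours of mammary 4T1. Slc2a1 was at 27.7 ± 17.2 RPKM there, next to 23.5 ± 11.9 and 56.9 ± 25.4 RPKM. For Mvt1, tail-vein metastases had Pdk1 at 3.15 ± 2.03 RPKM (n = 6 mice), next to 3.56 ± 2.02 in mammary-origin metastases and 8.34 ± 3.34 in tumours; these 6 libraries have Met1 in the first words of their titles but Mvt1 in the sample name and as the line. Tail-vein and mammary-origin metastases overlapped in each of these genes. The single Met1 tail-vein library had Slc2a1 at 4.59, Egln3 at 0.242 and Epas1 at 58.1 RPKM, where Met1 lung metastases averaged 93.5, 55.1 and 19.0 RPKM and healthy lung 7.53, 0.835 and 321 RPKM. In 7 mice with M6 injected into the heart, liver metastases had P4ha2 at 8.40 ± 2.47, Slc2a1 at 23.3 ± 7.66 and Slc16a3 at 2.24 ± 1.51 RPKM. The 2 brain metastases, 1 library each, had Aldoc at 1220 (Met1) and 303 RPKM (M6) and Eno2 at 169.9 and 338 RPKM, genes that brain tissue itself expresses strongly. The 2 mice with Neu tumours had the highest Aldoc among tumours, 857 and 774 RPKM, with 856 and 1655 RPKM in their lung metastases. The libraries of the second of these mice have PyMT-Neu in their names.

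Lists of other genes of these pathways give the setting of the members across the 10 models. Of 29 other HIF targets tested, 12 were lower and 2 higher in lung metastases, with a median of −0.17; over all genes 19.4% were lower and 11.7% higher, with a median of −0.04. The higher ones were Pfkfb4, a relative of Pfkfb3 (2.54 RPKM in tumours, 4.85 in metastases; 0.69, adjusted p = 6.88e-06), and Selenbp1 (12.5 and 37.5 RPKM; 1.43, adjusted p = 8.58e-05), and the strongest lower ones were Zfp395 (−0.89, adjusted p = 0.000111) and Mxi1 (−0.40, adjusted p = 0.000549). Of 9 HIF regulators, Hif1an (−0.23), Egln2 (−0.23) and Arnt (−0.20) were lower and 2 were higher, Tceb2 among them (0.26). Of 10 other glycolysis and gluconeogenesis genes, Hk3 (0.46) and Pfkfb2 (0.30) were higher and Pck2 (−0.47) and Eno3 (−0.38) lower. Of 22 genes of pyruvate dehydrogenase and the citrate cycle, Dlat (−0.21) and Pdk2 (−0.36) were lower and 3 higher, with Mdh2 (0.18) and Idh3a (0.19) among them, and the median was 0.08. Those 2 and 3 of 22 are below or near the shares over all genes. Between tumours and cultured cells, 11 of 27 other HIF targets were higher in tumours and none lower (12.4% and 9.55% of all genes), led by Lox (0.0398 RPKM in cells, 11.2 in tumours) and Angptl4 (0.95 and 16.0 RPKM). Of 21 genes of the citrate cycle list, 2, Dlat and Cs, were lower and none higher, so the share that was lower was near that of all genes. In M6 liver metastases, 7 of 28 other HIF targets were lower (7.25% of all genes), among them Lox (15.3 to 1.26 RPKM), Vegfa (51.3 to 8.31 RPKM) and Ero1l (43.0 to 11.1 RPKM), and 2 were higher (6.05% of all genes), led by Nrn1. There, 6 of 13 other glycolysis and gluconeogenesis genes were higher, among them Fbp1 and Pck1, enzymes that hepatocytes express strongly.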

How the data were processed

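RNA-seq libraries of snap-frozen tissue or cultured cells were analysed from the table of RPKM values (reads scaled by transcript length and library depth) that the authors deposited; per the submitters' processing notes, TopHat, DESeq2 and the build mm9 were used, and versions are not given in the sources used here. No column of the table lacked a sample. Whole reads could be recovered for the members in all 335 libraries within 0.01 reads, which gave the depth only.

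RPKM values of libraries from 1 mouse and tissue were averaged and taken as log2(RPKM + 1), which understates changes of low genes. Genes reaching 1 RPKM in a number of profiles no lower than the size of the smaller group were tested with limma 3.58.1 (R 4.3.3; trend and robust), with the mouse (or line) as a block and Benjamini-Hochberg adjustment over all genes tested; an adjusted p under 0.05 was called. The comparison over models used 1 mean paired difference per model, and the comparison of lines with strains used the same 10 values. The pairing comes from the animal named in the titles, and the deviations of tumour and metastasis correlated above 0.1 in 44 of 68 mice. The fits were tested on simulated data with known changes. Lung share was estimated from 19 lung epithelial marker genes, bounded to 95%. Alternatives were a pseudocount of 0.1, no filter, log2 values averaged per mouse, median-of-ratios rescaling, no block, lung share subtracted, 1 library name series only and leaving out each mouse, line or model; 2 kinds, leaving out the FVB mouse whose metastasis stood apart and another pairing of 1 BL6 tumour whose label and column disagree, were chosen after seeing the data. Promoters come from RefSeq (GRCm38.p6), matched by symbol, and no coordinate of the deposited build is used.

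The members and the other lists were chosen with earlier results of these data known. Each member present is described; full values were given for members called over the 10 models and, elsewhere, for up to 6 called members with the smallest adjusted p, or the 3 largest uncalled differences where fewer than 3 were called, and up to 4 genes of each other list.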

Additional observations from a re-analysis of the deposited data

Results flagged for a closer look

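Among 72 differences of called members in groups of 4 to 10 mice or models, 2 had a value far from the rest, where chance gives about 1 in 20 groups. In 4T1, mouse 2 had Slc2a1 at −2.46 on the log2 scale, well below the other 5 mice. Over the models, Hk1 stood at 0.21 in 6DT1 while the other 9 models were below 0.

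In 4 genes, every mouse of some models moved one way and every mouse of another the opposite way. Whether the models differ was not tested for these genes. Such patterns were not counted over all genes, so the 4 have no background to be set against. The values are medians over the mice. Pfkfb3 was higher in metastases in 6DT1 (0.41) and lower in CAST (−0.82) and MOLF (−0.47). Pgam1 was higher in BL6 (0.31) and lower in 4T1 (−0.42), Mvt1 (−0.46) and M6 (−0.51). Eno1 was higher in Mvt1 (0.28) and lower in M6 (−0.37). Slc2a3 was higher in BL10 (0.47) and MOLF (0.65) and lower in 6DT1 (−0.61).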

How the results depend on the processing

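Over the 10 models, 15 to 18 members were called under the settings other than leaving out a model, and 14 to 17 without 1 model. Adm, Bnip3, Eno2, Hk1, Pfkl, Ddit4, Car12, Egln3, Pdk1, Car9 and Pdk3 kept their calls under all 16 alternatives run. With the lung share subtracted and values below 0 set to 0, Epas1 turned to −2.30 over the models. It turned to −2.53 in 4T1, −2.55 in 6DT1, −2.76 in Mvt1, −1.84 in FVB and −2.48 in CAST. Ldhb turned to −2.41 in 4T1 and −1.21 in Mvt1. Where values were set to 0, such a difference is not a measured fall, and the cause was not tested. Member counts there were 1 in Met1, 1 in M6, 1 in BL6, 0 in BL10 and 2 in MOLF. In M6, 2 members passed with a pseudocount of 0.1, without the filter or after rescaling. In BL6, 1 passed with the pseudocount of 0.1, and none passed, of the members or of all genes, with the other pairing of 1 tumour. In BL10, 0 passed without the filter and after rescaling, and in M6 liver metastases 1 passed without the filter. In the largest library name series, counts were 0 in FVB, 0 in BL10 and 9 in CAST. Without the replicate block, counts were 1 in M6, 1 in CAST and 4 between tumours and cells, and the other counts changed by less than 1.5 times. Leaving out 1 mouse gave 7 to 13 in 4T1, 6 to 17 in 6DT1, 5 to 13 in Mvt1, 0 to 4 in M6, 0 to 2 in FVB, 0 to 1 in BL6, 0 to 4 in BL10, 1 to 9 in CAST, 0 to 1 in MOLF and 0 to 7 in M6 liver, and leaving out 1 model gave 0 to 2 between lines and strains, the 2 without Met1.

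With 3 to 12 mice per comparison and few reads for Eno2, Adm and Slc2a3, small differences could not be told from the spread. RPKM carries no depth per value, log2(RPKM + 1) compresses low genes, and the lung estimate assumes that FVB healthy lung stands for the lung in all strains. The estimate also treats lung around a metastasis as unchanged. None of these limits was tested further.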
